A study of Homo sapiens with 12 samples.

Results

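The genes described here are 10 negative feedback genes of the MAP kinase pathways, followed in Ewing sarcoma cell lines in which an AP-1 pair, c-Jun with c-Fos, was switched on. They are 6 dual-specificity phosphatases, DUSP1, DUSP4, DUSP5, DUSP6, DUSP8 and DUSP10, together with SPRY1, SPRY2, SPRY4 and SPRED1. They were taken by symbol from a table of 58721 genes, and all 10 passed the filter on low counts. MAP kinases (ERK, JNK and p38) carry growth factor and stress signals to the nucleus, where AP-1 is one of their best known targets. The dual-specificity phosphatases, also called MAP kinase phosphatases, remove the activating phosphates from these kinases. Sprouty and Spred proteins act further up, between receptor tyrosine kinases, Ras and Raf. Many of these genes are transcribed in response to the same signals that they switch off. In Ewing sarcoma, a bone and soft tissue tumor, the driver is most often the fusion protein EWS-FLI1.

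RNA-seq counts came from 12 libraries of the EW8 and TC71 Ewing sarcoma cell lines, with 3 libraries in each of 4 groups. All 12 were made from cells carrying lentiviral vectors for c-Jun and c-Fos, made from a single transcript under the TRE3G promoter, and for the Tet-On 3G transactivator under the EF1 alpha promoter, selected with puromycin and geneticin. Vehicle groups (labelled WT) received DMSO for 72 h, and doxycycline groups (labelled AP1_overexpression) received 2000 ng/ml for 72 h. Doxycycline-treated cells without the transgenes were not analysed here, so an effect of the drug itself and one of c-Jun and c-Fos cannot be told apart. Nothing in the sources used here says that the 3 libraries of a group came from separate cultures, and p-values then measure only the spread between these libraries, which may be technical.

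Total counts ran from 42860665 to 60853649 per library. JUN was 22.0-fold higher with doxycycline in EW8 and 36.5-fold higher in TC71, and FOS 29.3-fold and 135-fold, with transgene and endogenous reads counted together. Levels are given in CPM, read counts scaled to library size after TMM normalization. All 10 Ewing sarcoma markers checked, such as CD99 and NKX2-2, were at 9.42 CPM or more in every library. With doxycycline, 6 were lower and 1 higher in EW8, and 6 lower and 2 higher in TC71 (edgeR adjusted p under 0.05). Of all genes, 22% were lower and 21.9% higher in EW8, and 20.4% and 25.1% in TC71. LIPI fell furthest, from 47.7 to 18.1 CPM in EW8 (mean of 3 libraries). Replicates of a group differed by a chi-square per gene of 5.24 to 10.2, except for the pairs with TC71 vehicle replicate 1, at 56.1 and 58.9. Test results of the 10 genes that rest on that library are therefore given with and without it. Unless stated, shares of all genes, counts of the pathway lists and sums per kilobase include it. Some markers of other cell types moved with doxycycline as well. The summed level of 3 endothelial markers went from between 7.22 and 8.48 CPM to between 36.1 and 43.7 CPM in EW8, and from at most 0.0388 CPM to between 3.75 and 4.61 CPM in TC71, where PECAM1 and VWF had no count under vehicle. PECAM1 carried the EW8 sum (mean 7.07 and then 37.5 CPM). In EW8, VWF rose from 0.0655 to 2.53 CPM, while CDH5 stood at 0.873 ± 0.83 and then 0.601 ± 0.296 CPM (SD, n = 3). For 2 epithelial markers, the sum in TC71 went from at most 1.19 CPM to between 11.3 and 12.6 CPM, with EPCAM carrying it and CDH1 at or under 2 counts, while the sum in EW8 was at most 0.593 CPM. Of 4 blood cell markers, PTPRC stood at 59.6 to 77.4 CPM in EW8 and at the floor in TC71, and CD3E was at the floor in all 4 groups. CD79A fell in EW8 from 21.2 ± 0.462 to 11.8 ± 0.69 CPM (SD, n = 3). The sum of 4 fibroblast markers went from between 76.9 and 85.1 CPM to between 56.9 and 57.2 CPM in EW8, and from between 70.4 and 113 CPM to between 114 and 123 CPM in TC71, where COL1A1 carried the sum (log2 fold change 1.83) and DCN (−1.73), LUM (−1.66) and PDGFRB (−1.42) fell. Their part in the results below was not tested. In bulk RNA, a change in every cell and a change in the share of cells that express a gene cannot be told apart.

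DUSP1, DUSP5, DUSP6 and SPRY2 rose with doxycycline in both lines (29.4% of all genes passed in both lines in the same direction). In EW8, 7 of the 10 genes passed the test (edgeR's quasi-likelihood test, Benjamini-Hochberg adjusted p under 0.05 over 21013 genes), and all 7 were higher. In TC71, 4 were higher and 2, DUSP4 and SPRY1, were lower. The largest responses were those of DUSP1 in EW8, 8.22-fold, and of DUSP5 in TC71, 19.4-fold. Across all genes, 43.9% passed in EW8 and 45.6% in TC71, 21.9% and 25.1% passed in the higher direction, and 22% and 20.4% in the lower. When a fold change over 2 was also asked for (a log2 fold change over 1), 6 of the 10 were called in each line, against 14.8% and 16% of all genes. By direction these were 6 higher and 0 lower in EW8 (11.4% and 3.38% of all genes) and 4 higher and 2 lower in TC71 (12.3% and 3.67%). The 3 treated and 3 vehicle libraries did not overlap for 7 of the 10 genes in EW8 (56% of all genes) and for 9 of the 10 in TC71 (50.7%). The median log2 fold change of the 10 was 1.40 in EW8 and 0.80 in TC71 (0.66 with DUSP4 set at its bound and DUSP10 left out), against −0.03 and 0 over all genes tested. Without TC71 vehicle replicate 1, 4 of the 10 were called in TC71. Over all genes 3394 were then called, 72.3% of them higher, against 3355 and 77% with that library.

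**Figure D1:**
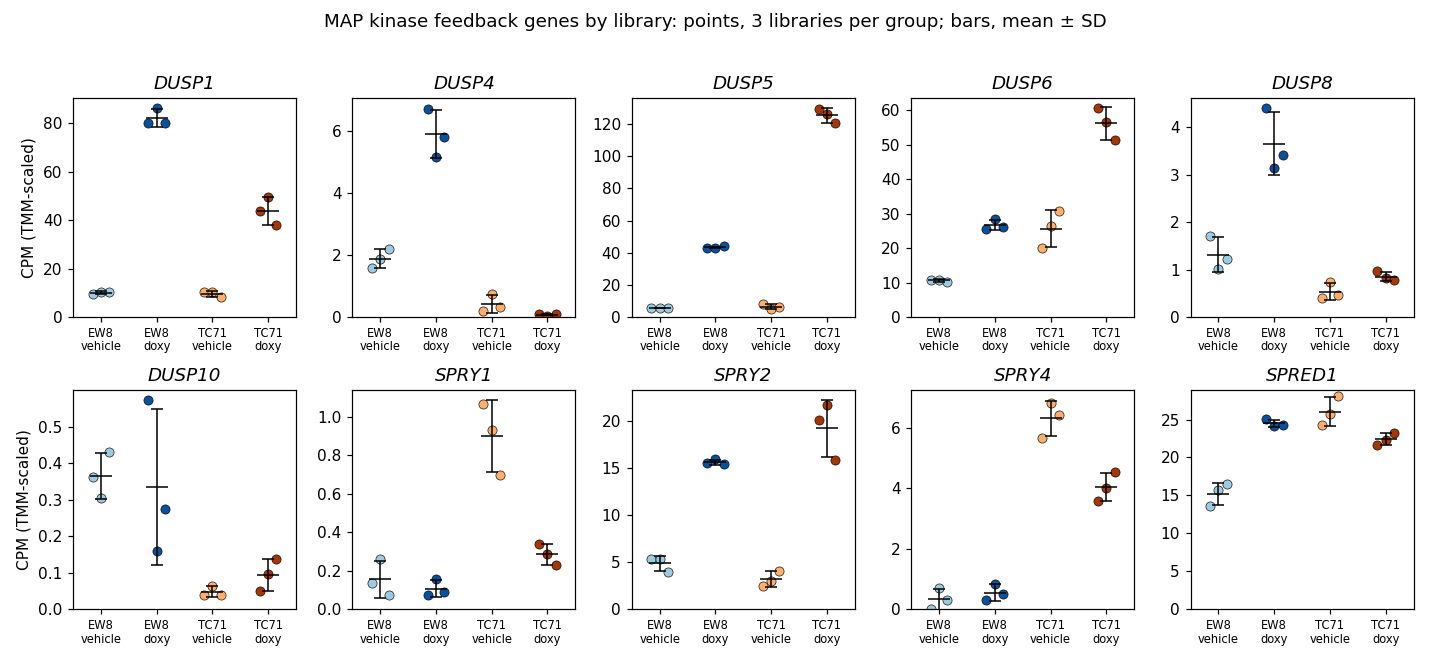
Level of each of the 10 genes in CPM (vertical axes from 0, a different scale in each panel), with 1 point per library in the 4 groups and a bar for the mean ± SD of 3 libraries. DUSP1, DUSP5, DUSP6 and SPRY2 are higher with doxycycline in both lines with no overlap between the 3 treated and 3 vehicle libraries, DUSP4 goes up in EW8 and to the floor in TC71, and SPRY1 and SPRY4 have their highest levels in TC71 vehicle.

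DUSP1, DUSP4 and DUSP5 are inducible phosphatases of the nucleus. DUSP1 (ENSG00000120129.5, hg38 chr5:172768090-172771195, minus strand) is an immediate early gene whose product acts on p38 and JNK as well as on ERK. It stood at 9.34, 10.5 and 10.1 CPM in EW8 vehicle replicates 1 to 3 and at 80.07, 86.38 and 80.04 CPM with doxycycline. In TC71 it stood at 10.3, 10.3 and 8.21 CPM under vehicle and at 43.8, 49.4 and 38.1 CPM with doxycycline. The lines overlapped under vehicle and separated with doxycycline, EW8 being the higher. The log2 fold change was 3.04 (SE 0.108, edgeR adjusted p = 7.52e-14) in EW8 and 2.19 (SE 0.106, edgeR adjusted p = 5.45e-12) in TC71. The response in TC71 was smaller by a log2 difference of −0.85 (SE 0.146, edgeR adjusted p = 0.000369 for the interaction).

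DUSP5 (ENSG00000138166.5, hg38 chr10:110497838-110511544, plus strand) is a nuclear phosphatase specific for ERK. Its EW8 vehicle libraries held 5.44, 5.49 and 5.53 CPM, and its doxycycline libraries held 43.03, 42.9 and 43.85 CPM. In TC71 the values were 7.92, 5.22 and 6.35 CPM under vehicle and 129, 126 and 120.5 CPM with doxycycline. The vehicle ranges of the lines overlapped, whereas every treated TC71 library was above every treated EW8 library, the opposite order to DUSP1. DUSP5 rose by a log2 fold change of 2.98 (SE 0.109, edgeR adjusted p = 1.1e-13) in EW8 and of 4.28 (SE 0.11, edgeR adjusted p = 6.12e-16) in TC71, and the responses differed by 1.30 (SE 0.148, edgeR adjusted p = 4.26e-06). In absolute size its TC71 response was at the percentile 96.2 of all genes tested. The pseudogene DUSP5P1 had between 0 and 66 counts per library, and reads that fit both copies were left out by the authors' counting.

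DUSP4 (ENSG00000120875.8), a nuclear phosphatase related to DUSP1, was the one gene of the 10 that passed the test in opposite directions in the 2 lines, as 1.74% of all genes did. Counts are given for it, because they were low in TC71, where 6 counts or fewer in all 3 libraries of a group (3 read pairs) were treated as the floor. In EW8 it had 70, 86 and 122 counts under vehicle (1.58, 1.87 and 2.19 CPM) and 376, 262 and 254 counts with doxycycline (6.73, 5.18 and 5.80 CPM). In TC71 it had 10, 46 and 16 counts under vehicle and 4, 2 and 4 counts with doxycycline, which is at the floor. No treated library overlapped a vehicle library in either line, but TC71 vehicle replicate 2 alone held most of the vehicle counts. The log2 fold change in EW8 was 1.65 (SE 0.32, edgeR adjusted p = 0.000357), and in TC71 DUSP4 was at least 2.92-fold lower with doxycycline (edgeR adjusted p = 0.00136). Without vehicle replicate 2 it was at least 1.77-fold lower (edgeR adjusted p = 0.0126). The interaction passed as well (edgeR adjusted p = 0.000123), and with the treated TC71 group at its floor the ratio between the responses was at least 9.14-fold, or 5.53-fold without TC71 vehicle replicate 2.

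DUSP6 (ENSG00000139318.7, hg38 chr12:89347232-89353271, minus strand) is the cytoplasmic phosphatase specific for ERK and is widely read as a marker of ERK activity. Its level in EW8 was 10.9, 10.9 and 10.1 CPM under vehicle and 25.5, 28.3 and 26.1 CPM with doxycycline. TC71 started higher, at 20.01, 26.25 and 30.66 CPM, and reached 60.7, 56.6 and 51.2 CPM with doxycycline. Treated EW8 cells thus overlapped untreated TC71 cells. DUSP6 rose in both lines, with a log2 fold change of 1.33 (SE 0.124, edgeR adjusted p = 6.8e-08) in EW8 and 1.13 (SE 0.118, edgeR adjusted p = 2.62e-07) in TC71. The responses differed by −0.20 (95% interval −0.56 to 0.16, edgeR adjusted p = 0.487). This depended on TC71 vehicle replicate 1, the lowest of its group: without it the TC71 response was 0.90, under the fold limit, and the difference was −0.47 (edgeR adjusted p = 0.00718). An antisense gene (ENSG00000274021.1, 3 to 28 counts per library) covers 1875 of the 4632 exon bases of DUSP6 (40.5%), and the counting was unstranded and left out reads on both genes, so DUSP6 levels are uncertain and may be understated.

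DUSP8 and DUSP10 act mainly on JNK and p38. DUSP8 (ENSG00000184545.10, hg38 chr11:1554044-1571920, minus strand) had 76, 46 and 68 counts in EW8 under vehicle and 246, 159 and 149 with doxycycline. In TC71 the counts were 21, 46 and 24 under vehicle and 40, 34 and 34 with doxycycline. In CPM, the treated libraries lay above the vehicle libraries in both lines, narrowly in TC71 (0.774 against 0.741 CPM). The log2 fold change in EW8 was 1.48 (SE 0.298, edgeR adjusted p = 0.000514). In TC71 it was 0.65 (95% interval −0.04 to 1.35, edgeR adjusted p = 0.121, and 0.0401 without vehicle replicate 2). The pseudogene DUSP8P5 had 8 to 75 counts per library. DUSP10 (ENSG00000143507.17, hg38 chr1:221701424-221742176, minus strand) had 16, 14 and 24 counts in EW8 under vehicle and 32, 8 and 12 with doxycycline. Its TC71 libraries had 2 to 6 counts in both groups, so no fold is given there. In EW8 the groups overlapped (log2 fold change −0.12, 95% interval −1.48 to 1.24, edgeR adjusted p = 0.91), a range wide enough to hold a change of over 2-fold either way.

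Among the Sprouty genes, which block Ras and ERK signalling from growth factor receptors, SPRY2 rose in both lines and the others did not. SPRY2 (ENSG00000136158.11, hg38 chr13:80335976-80340951, minus strand) stood at 5.37, 5.32 and 3.95 CPM in EW8 under vehicle and at 15.5, 15.9 and 15.4 CPM with doxycycline. In TC71 the values were 2.44, 2.93 and 4.08 CPM and then 20.1, 21.7 and 15.8 CPM. The lines overlapped with and without doxycycline. The log2 fold change was 1.68 (SE 0.174, edgeR adjusted p = 2.72e-07) in EW8 and 2.61 (SE 0.18, edgeR adjusted p = 8.8e-10) in TC71. Their difference was 0.93 (SE 0.245, edgeR adjusted p = 0.0117). The edgeR adjusted p was between 0.0555 and 0.0632 when any 1 of the 3 EW8 doxycycline libraries was left out. The difference was past the fold limit without TC71 vehicle replicate 3 (1.06, edgeR adjusted p = 0.00338) or TC71 doxycycline replicate 3 (1.05, edgeR adjusted p = 0.00686).

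SPRY1 (ENSG00000164056.10, hg38 chr4:123396795-123403760, plus strand) was scarce. It had 56, 58 and 36 counts in TC71 under vehicle and 14, 12 and 10 with doxycycline, with no overlap. In EW8 there were 6, 12 and 4 counts under vehicle and 4, 8 and 4 with doxycycline. SPRY1 fell by 1.66 on the log2 scale in TC71 (SE 0.563, edgeR adjusted p = 0.0224). The call was lost by edgeR without TC71 vehicle replicate 1 (adjusted p = 0.0698) or 2 (0.0664) and without TC71 doxycycline replicate 2 (0.0583) or 3 (0.076). In EW8 the log2 fold change was −0.52 (95% interval −1.89 to 0.86, edgeR adjusted p = 0.57), and 0.067 without EW8 vehicle replicate 2.

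SPRY4 (ENSG00000187678.9, hg38 chr5:142310427-142326455, minus strand) was largely a TC71 transcript. It stood at 5.67, 6.83 and 6.41 CPM in TC71 under vehicle and at 3.59, 4.02 and 4.53 CPM with doxycycline. EW8 held 0, 32 and 16 counts under vehicle and 16, 42 and 22 with doxycycline. The treated TC71 libraries were all below the vehicle ones, yet the log2 fold change of −0.64 did not pass (SE 0.413, edgeR adjusted p = 0.23). It did pass when TC71 was fitted on its own 6 libraries (−0.64, edgeR adjusted p = 0.00965) and without a filter on low counts (−0.65, edgeR adjusted p = 0.0414). In EW8 the log2 fold change was 0.70 (SE 0.582, edgeR adjusted p = 0.367), and 1.76 (edgeR adjusted p = 0.0372) without vehicle replicate 2, the library with 32 counts.

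SPRED1 (ENSG00000166068.12, hg38 chr15:38252326-38357249, plus strand), which brings the Ras inhibitor neurofibromin to the membrane, was measured well above the floor in every library. Its level was 13.6, 15.7 and 16.5 CPM in EW8 under vehicle and 25.1, 24.2 and 24.3 CPM with doxycycline. In TC71 it was 24.3, 25.7 and 28.1 CPM under vehicle and 21.7, 22.4 and 23.2 CPM with doxycycline. The treated libraries lay above the vehicle libraries in EW8 and below them in TC71. SPRED1 rose in EW8 by a log2 fold change of 0.69 (SE 0.0936, edgeR adjusted p = 8.59e-06), under the 2-fold limit. In TC71 the log2 fold change was −0.22 (SE 0.0924, edgeR adjusted p = 0.0658), which passed in 10 of the 21 alternative analyses, among them the one without TC71 vehicle replicate 1 (−0.34, edgeR adjusted p = 0.0047). The difference between the responses was −0.90 (SE 0.131, edgeR adjusted p = 6.76e-05).

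**Figure D2:**
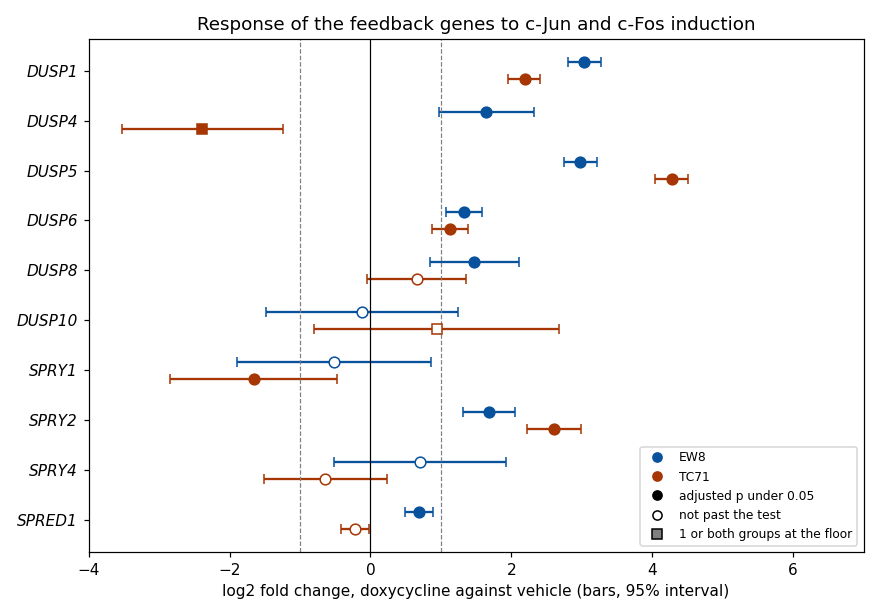
Log2 fold change with doxycycline (horizontal axis) for the 10 genes in EW8 (blue) and TC71 (brown), with 95% intervals, filled where the edgeR adjusted p is under 0.05, square where a group was at the floor, and dashed lines at the 2-fold limits. In EW8 every gene that passed lies to the right of 0, from 0.69 for SPRED1 to 3.04 for DUSP1, whereas TC71 runs from DUSP4 on the left, a fitted value and no bound, to 4.28 for DUSP5.

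The difference between the lines itself passed the test for 5 of the 10 genes, DUSP5 and SPRY2 with the larger response in TC71 and DUSP1, DUSP4 and SPRED1 with the larger or only rise in EW8. Of all genes, 19.3% passed this test, and 7.05% were called with the 2-fold limit, as DUSP4 and DUSP5 were. By direction, 2 were higher and 3 lower in TC71 (12.2% and 7.07% of all genes), of which 1 and 1 were called (4.18% and 2.87%). Without TC71 vehicle replicate 1, 48.3% of the 1637 genes called for the difference were higher in TC71, against 59.3% of 1481 with it. SPRED1 was then called too (−1.07, edgeR adjusted p = 5.55e-07), and DUSP6 passed (−0.47, edgeR adjusted p = 0.00718). DUSP8 (95% interval of the difference −1.76 to 0.11), SPRY1 (−2.97 to 0.70) and SPRY4 (−2.84 to 0.16) did not pass, with wide intervals. For SPRY4 the difference passed without EW8 vehicle replicate 2 (−2.40, edgeR adjusted p = 0.0303) and without a filter on low counts (−1.35, edgeR adjusted p = 0.0234).

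Before induction the lines already differed. Under vehicle 8 of the 10 genes passed the test of TC71 against EW8 (61.7% of all genes did), 4 higher and 4 lower (28.2% and 33.5%), and 6 were called (30.6% of all genes), 3 higher and 3 lower (11.6% and 18.9%). SPRY4 was 19.0-fold higher in TC71 (log2 fold change 4.25, SE 0.519, edgeR adjusted p = 1.01e-06), and 39.7-fold without EW8 vehicle replicate 2, which held 32 of its group's counts. SPRY1 was higher by 2.53 (edgeR adjusted p = 0.00113, and 3.11 without EW8 vehicle replicate 2), DUSP6 by 1.27 (edgeR adjusted p = 5.05e-08) and SPRED1 by 0.77 (edgeR adjusted p = 9.03e-07). DUSP4 was lower by a log2 fold change of −2.15 (edgeR adjusted p = 4.44e-05, and −2.90 without TC71 vehicle replicate 2), DUSP8 by −1.28 (edgeR adjusted p = 0.00204) and SPRY2 by −0.63 (edgeR adjusted p = 0.00593), although the SPRY2 ranges overlapped. DUSP10 was at least 3.35-fold lower (edgeR adjusted p = 0.00299). Without TC71 vehicle replicate 1 the DUSP8 value was −0.996, just under the fold limit, and SPRY2 no longer passed (−0.37, edgeR adjusted p = 0.0713). DUSP1 and DUSP5 had no difference past the threshold (log2 fold changes −0.06, 95% interval −0.29 to 0.17, and 0.24, 95% interval −0.00203 to 0.48).

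With doxycycline, 7 of the 10 genes passed (62.5% of all genes), 3 higher and 4 lower (30.2% and 32.3%), and 6 were called (31% of all genes), 3 higher and 3 lower (12.6% and 18.4%), in a comparison that shares its treated libraries with the responses above. DUSP5 was higher in TC71 by 1.54 (edgeR adjusted p = 1.11e-10) and DUSP1 lower by a log2 fold change of −0.91 (edgeR adjusted p = 2.21e-07, and past the fold limit at −1.003 without TC71 doxycycline replicate 2), where neither had differed past the threshold under vehicle. DUSP4 was at least 41.6-fold lower in TC71 (edgeR adjusted p = 1.68e-09) and DUSP8 lower by −2.10 (edgeR adjusted p = 1.07e-05). SPRY4 was 2.91 higher on the log2 scale (edgeR adjusted p = 4.28e-05) and DUSP6 1.08 higher (edgeR adjusted p = 2.63e-07, and 0.99 without EW8 doxycycline replicate 3). DUSP10 was at least 2.36-fold lower (edgeR adjusted p = 0.0371), a call lost in 8 of the 17 alternative analyses that tested it (adjusted p from 0.0504 to 0.248), and at least 1.52-fold lower without EW8 doxycycline replicate 1. SPRED1 differed by −0.13 (edgeR adjusted p = 0.236), where it had differed by 0.77 under vehicle. SPRY2 differed by 0.30 (edgeR adjusted p = 0.125), and passed on the 6 doxycycline libraries alone (0.28, edgeR adjusted p = 0.0264) and without TC71 doxycycline replicate 3 (0.42, edgeR adjusted p = 0.0494).

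Levels of different genes were compared per kilobase of exon. The 6 phosphatases summed to 10.0 ± 0.232 CPM per kb in EW8 under vehicle and 64.7 ± 1.77 with doxycycline (SD, n = 3), a ratio of 6.47. In TC71 the sum went from 13 ± 0.361 to 82.0 ± 4.97 CPM per kb, a ratio of 6.31. The make-up of the sum is given next as each gene's mean share. In EW8, DUSP1 made 49.4% of the sum under vehicle and 62.9% with doxycycline, and DUSP5 21.0% and 25.6%. In TC71, DUSP6 had the largest mean share under vehicle (42.6%, SD 7.79). In TC71 vehicle replicate 1, however, DUSP1 was above DUSP6, at 5.09 against 4.32 CPM per kb. With doxycycline DUSP5 was the largest part in TC71 (58.5%, from 19.2%), while DUSP1 went from 36.7% to 26.4% although its level rose. The share of DUSP6 went from 22.9% to 8.89% in EW8 and from 42.6% to 14.8% in TC71. DUSP6 may be understated in the sums, in these shares and in its order against DUSP1. Reads on the 40.5% of its exon bases under an antisense gene may have been left out, while its full exon length was used. DUSP4, DUSP8 and DUSP10 together were a small part, none above 2.85% in any group.

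The sum of the 3 Sprouty genes and SPRED1 went from 3.54 ± 0.244 to 8.22 ± 0.109 CPM per kb in EW8 and from 5.38 ± 0.512 to 9.72 ± 0.893 in TC71 (SD, n = 3), ratios of 2.32 and 1.81. SPRED1 had the largest mean share under vehicle in both lines, at 52.3% (SD 6.22) in EW8 and 58.7% (SD 1.36) in TC71. In EW8 vehicle replicate 1, however, SPRY2 was above SPRED1, at 1.77 against 1.65 CPM per kb. With doxycycline the largest part was SPRY2, at 62.5% in EW8 and 64.8% in TC71. SPRY4 made 17.9% of the TC71 sum under vehicle and 6.4% with doxycycline, and at most 1.36% in EW8.

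**Figure D3:**
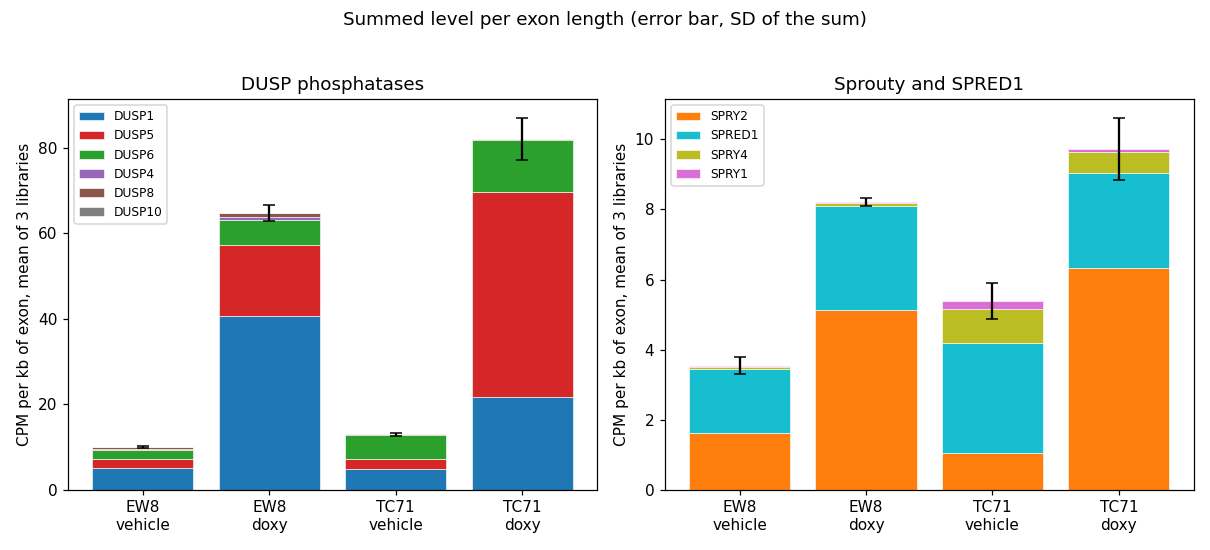
Summed level per kilobase of exon (vertical axes, CPM per kb, mean of 3 libraries, from 0) of the 6 phosphatases (left) and of the Sprouty genes with SPRED1 (right) in the 4 groups, stacked by gene, with the SD of the sum. The phosphatase sums are 64.7 and 82.0 with doxycycline in EW8 and TC71, but DUSP1 is the largest part in EW8 and DUSP5 in TC71. The DUSP6 part may be understated, because 40.5% of its exon bases lie under an antisense gene.

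Across the 12 libraries, SPRY2 followed DUSP5 (Pearson r = 0.93 of log2 CPM) and DUSP1 (0.90), and DUSP1 followed DUSP5 (0.86). DUSP4 followed DUSP8 (0.81), and SPRY1 and SPRY4 each other (0.77), whereas SPRY1 and DUSP10 ran against each other (−0.88). Such values describe 4 groups of libraries with shared treatment and line, and carry no test. The gene with the most similar pattern over the 12 libraries was GPR183 for DUSP5 (r = 0.996, with 377 genes over 0.95), LINC00520 for DUSP1 (0.996, with 315) and CLDN4 for SPRY2 (0.991, with 271), so many genes shared these patterns. For DUSP6 it was ANXA7 (0.994), for SPRY4 APOC1 (0.99), for DUSP4 C2orf42 (0.983) and for DUSP8 DDX60 (0.973). For SPRY1, DUSP10 and SPRED1 it was COA4 (0.969), C4orf19 (0.962) and USP18 (0.952), with 13, 1 and 2 genes over 0.95, respectively. A high r does not mean a change of similar size. C2orf42 had log2 fold changes of 0.19 in EW8 and −0.24 in TC71, against 1.65 for DUSP4 in EW8. CLDN4 moved more than SPRY2, with fitted values of 5.74 and 7.95 against 1.68 and 2.61.

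Because the induced factors bind DNA, the proximal promoters were searched for their motifs. RefSeq windows (GRCh38.p14, 300 bases from 250 before to 50 after each start site) were at hand for 8 of the 10 genes, 12 windows in all, with none used here for DUSP4 and DUSP5. The AP-1 site TGANTCA, searched on both strands, was in 7.71% of all 35116 windows and in none of the 12. The cyclic AMP response element TGACGTCA, which c-Jun can bind with ATF partners, was in 1.85% of all windows and in 2 of the 12, those of DUSP1 and DUSP8. A match to it is never one to TGANTCA, so no stretch was counted under both. Neither the ETS motif CCGGAAGT (4.14% of all windows), nor the repeat GGAAGGAA (3.67%), nor the CArG box (1.29%) was found in the 12. The stretches around the response elements are shown because they are the only matches among these genes, in lower case with the element in capitals, 5′ to 3′ on the strand of the gene.
DUSP1, chr5:172771293-172771340, minus strand: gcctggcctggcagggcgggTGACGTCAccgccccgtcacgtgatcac
DUSP8, chr11:1572318-1572409, minus strand: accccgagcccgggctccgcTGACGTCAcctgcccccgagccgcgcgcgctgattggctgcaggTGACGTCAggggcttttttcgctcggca
The DUSP1 stretch runs from −145 to −98 of its start site and the DUSP8 stretch from −138 to −47. The DUSP8 start site in RefSeq lies 351 bases upstream of the first base of the gene as counted. A match is a description of these letters, and binding was not measured. Both genes rose in EW8, and so did SPRY2, DUSP6 and SPRED1, whose windows hold none of the motifs searched. In TC71, DUSP1, DUSP6 and SPRY2 rose, and DUSP8 did not pass (log2 fold change 0.65, edgeR adjusted p = 0.121). Whether a match bears on a response was not tested.

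The rest of the MAP kinase network was described with lists of genes outside the 10. Of 14 other genes listed as MAP kinase phosphatases, 9 rose and 3 fell in EW8, while in TC71 6 rose and 3 fell (edgeR adjusted p under 0.05), against 21.9% higher and 22% lower over all genes in EW8 and 25.1% and 20.4% in TC71. Their median log2 fold change was 0.48 in EW8 and 0.14 in TC71. The list includes PPP2R2A, a phosphatase subunit, which did not pass in either line (edgeR adjusted p = 0.897 in EW8 and 0.11 in TC71). PTPRR, a receptor-type tyrosine phosphatase of ERK, rose by 3.39 in EW8 (SE 0.466, edgeR adjusted p = 1.76e-05). In TC71 it went from no count to 26 to 40 counts, at least 6.96-fold (edgeR adjusted p = 2.63e-06). DUSP7, an ERK phosphatase of the cytoplasm, rose by 1.41 in EW8 and 1.14 in TC71, DUSP18 by 1.15 and 1.65, and DUSP14 by 1.06 and 1.57 (edgeR adjusted p of 0.000282 or less). DUSP2 rose by 2.11 in EW8 (edgeR adjusted p = 0.000192) and stood at a log2 fold change of −0.24 in TC71 (edgeR adjusted p = 0.247). DUSP9 fell in EW8 (log2 fold change −1.315, edgeR adjusted p = 0.000266) and stood at −0.60 in TC71 (edgeR adjusted p = 0.121).

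Of 18 further inhibitors at the level of receptors and Ras, 8 were higher and 2 lower in EW8, and 9 higher and 2 lower in TC71, with medians of 0.28 in both (0.26 in TC71 with a gene at the floor left out). Over all genes, 21.9% were higher and 22% lower in EW8, and 25.1% and 20.4% in TC71. ERRFI1, which inhibits the EGF receptor family, went from 13.7 ± 1.77 to 296 ± 10.4 CPM in EW8 and from 62.5 ± 4.54 to 1173 ± 67.3 CPM in TC71 (SD, n = 3). Its log2 fold changes of 4.43 and 4.23 (edgeR adjusted p = 2.14e-17 and 1.51e-17) stood beside 3.04 for DUSP1 in EW8 and 4.28 for DUSP5 in TC71. SOCS3, an inhibitor of cytokine receptors, rose by 3.65 and 2.30 (edgeR adjusted p = 7.16e-14 and 7.77e-11), and SPRED3, a relative of SPRED1, by 2.20 and 2.05 (edgeR adjusted p = 5.5e-09 and 1.58e-07).

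Of 27 genes of the ERK cascade, 7 were higher and 6 lower in EW8, shares near those of all genes, and 11 higher and 3 lower in TC71, with medians of −0.06 and 0.13. RPS6KA3 (RSK2), a kinase downstream of ERK, rose by 1.48 and 1.89 (edgeR adjusted p = 1.31e-11 and 3.28e-13). MAP2K1 (MEK1), the kinase that activates ERK, rose by 1.201 in EW8 and 1.02 in TC71, and the GTPase gene RRAS by 1.64 and 0.85 (edgeR adjusted p of 1.85e-05 or less). RPS6KA2 (RSK3) rose by 2.06 in EW8 (0.74 in TC71, edgeR adjusted p = 0.427), and the GTPase gene MRAS by 1.75 in TC71 (0.38 in EW8, edgeR adjusted p = 0.302). Of 23 genes of the JNK and p38 cascades, 8 rose and 6 fell in EW8, and 12 rose and 6 fell in TC71, with medians of 0.03 and 0.18 (0.17 with a gene at the floor left out). The shares of all genes were 21.9% higher and 22% lower in EW8, and 25.1% and 20.4% in TC71. GADD45A, a stress-induced activator of the kinase MAP3K4, rose by 3.53 and 3.25 (edgeR adjusted p = 2e-15 and 3.57e-15) and its relative GADD45B by 1.94 and 3.53 (edgeR adjusted p = 1.74e-10 and 1.24e-13). MAP2K3, which phosphorylates p38, rose by 2.35 and 1.76 (edgeR adjusted p = 2.51e-15 and 1.29e-13). MAP2K6, of the same list, went the other way and fell in EW8 (log2 fold change −1.353, edgeR adjusted p = 2.35e-10). In TC71 the MAP2K6 level went from 40.02 ± 2.1 to 23.24 ± 0.736 CPM (SD, n = 3). GADD45G met the naming rule in TC71 but had at most 6 counts in each of its libraries, so no fold is given.

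Of 14 transcripts used as readouts of ERK activity, 9 were higher and 3 lower in EW8 (21.9% and 22% of all genes). Their median log2 fold change there was 1.63 (1.56 with 1 gene at its bound). In TC71, 7 were higher and 6 lower (25.1% and 20.4% of all genes), with a median of 0.51. PHLDA1 rose by 6.96 and 6.07 (edgeR adjusted p = 3e-14 and 1.31e-14). FOSL1, which encodes the AP-1 subunit Fra-1, rose by 6.86 and 5.54 (edgeR adjusted p = 1.66e-16 and 3.69e-16). IER3, an immediate early gene, rose by 4.48 and 2.75 (edgeR adjusted p = 4.42e-15 and 2.58e-12). KCNN4, a calcium-activated potassium channel, went from no count in TC71 vehicle to 1295 to 1527 counts, at least 300-fold (edgeR adjusted p = 5.53e-12), and rose by 4.45 in EW8 (edgeR adjusted p = 1.24e-08). The genes named so far are the largest changes, all of them rises. The 3 lower in EW8 were ETV1 (log2 fold change −1.02), EPHA4 (−0.79) and CCND1 (−0.54). EGR1 rose by 1.53 in EW8 (edgeR adjusted p = 6.71e-06) but went from 42.2 ± 11.5 to 16.2 ± 1.94 CPM in TC71 (SD, n = 3). No difference between these lists and the other genes was tested.

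**Figure D4:**
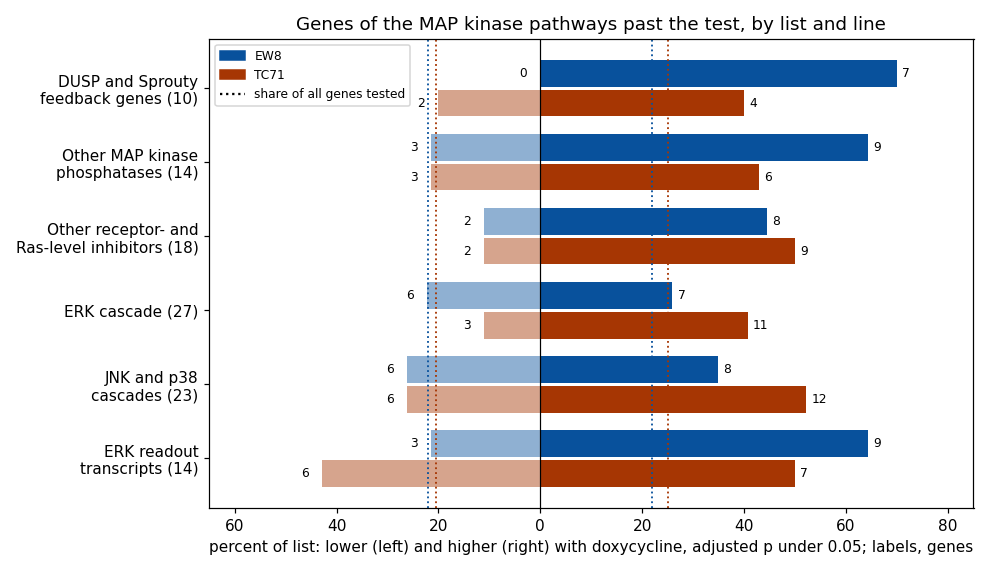
Percent of each list lower (left, pale) and higher (right, dark) with doxycycline at an edgeR adjusted p under 0.05, in EW8 (blue) and TC71 (brown), with the number of genes at each bar, the list size in parentheses and dotted lines at the share of all genes tested. For the 10 feedback genes the bars hold 7 higher and 0 lower in EW8 and 4 higher and 2 lower in TC71, and the ERK cascade in EW8 (7 higher, 6 lower) lies near the dotted lines.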

How the data were processed

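Stranded mRNA libraries were sequenced as read pairs. Per the file headers and the methods of the study, the authors aligned reads with STAR to hg38 and counted them per gene with featureCounts 2.0.1 on GENCODE 29 exons, and deposited whole-number counts, not normalized. Mates were counted singly and without strand, leaving out multimapped reads and those on more than 1 gene. The deposited table also gives other values, the exon length in base pairs, used for CPM per kb.

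From the counts, edgeR 4.0.16 (R 4.3.3; filterByExpr, TMM) was fitted once to all 12 libraries as 4 groups, on 21013 genes holding 99.95% of counts (common dispersion 0.0143). The study used DESeq2, run here as an alternative (1.42.0), with limma-voom (3.58.1), other scalings and filters, halved counts, a replicate block, fits on each comparison's own 6 libraries and each library left out. CPM gave levels, and 6 counts in a library were 0.0966 to 0.145 CPM. Symbols matched 99.1% of gene identifiers. A gene passed at an adjusted p under 0.05 and was called when it had also changed by more than 1 on the log2 scale. The fit was tested on simulated data with 50 genes at each log2 change. There 66% of changes of 1, 82% of −1, 96% of 2, 92% of −2 and 0.0582% of unchanged genes passed. All groups were drawn from EW8 vehicle means, with far fewer genes changed than in the data. The changed genes were picked above a minimum expected count, so their pass rates do not cover the scarcest genes. Floors cover counting error only, since PCR copies are not independent molecules.

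The 10 genes and the pathway lists were chosen with earlier results of these data known. Genes named from each list were the 3 largest changes per line past both limits with no overlap between groups, and the most similar gene was that with the highest r. Some other genes of the lists were named as well, such as MAP2K6, which fell.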

Additional observations from a re-analysis of the deposited data

Results flagged for a closer look

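The response to doxycycline differed between TC71 and EW8, by the interaction test of edgeR, for 5 of the 10 feedback genes. The difference of the log2 responses, TC71 minus EW8, was −0.85 for DUSP1 (SE 0.146, adjusted p = 0.000369), −0.90 for SPRED1 (SE 0.131, adjusted p = 6.76e-05), 1.30 for DUSP5 (SE 0.148, adjusted p = 4.26e-06) and 0.93 for SPRY2 (SE 0.245, adjusted p = 0.0117). For DUSP4 the fitted difference was −4.03 (SE 0.622, adjusted p = 0.000123), a value that depends on the prior count because the treated TC71 libraries were at the floor, and was −3.29 without TC71 vehicle replicate 2.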

How the results depend on the processing

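For the 10 genes, 50 results were recomputed under up to 21 alternative analyses, 12 of which left out a library, and scarce genes were tested in as few as 17. Of the 990 values, 943 kept their direction and their side of the threshold, 16 lost the threshold, 23 crossed it and 8 changed sign, none of these past the test. With single libraries left out, these were DUSP10 in EW8 (−0.71 to 0.26), SPRY1 in EW8 (−0.87 to 0.067) and DUSP1 between the lines under vehicle (−0.11 to 0.070). The number of the 10 genes called for the difference between the lines was 2 and went to 5 without the fold limit, and ranged from 2 to 4 when single libraries were left out, the 4 coming without TC71 vehicle replicate 3. When at least 10 counts were required in every library, DUSP4, DUSP10, SPRY1 and SPRY4, scarce in at least 1 line, dropped out. The 6 genes called under vehicle between the lines then became 2, the 8 that passed became 5, the 6 called under doxycycline became 3 and the 7 that passed became 4. The calls over all genes went under that filter from 3112 to 1600 in EW8, from 3355 to 1909 in TC71, from 1481 to 966 for the difference, from 6420 to 3566 under vehicle and from 6516 to 3464 under doxycycline. With a replicate block, 6, 6 and 2 of the 10 genes were called in EW8, in TC71 and for the difference, as without it (DUSP1 in EW8 had a log2 fold change of 3.04 with the block). Over all genes, 2968, 3220 and 1357 were called with the block, against 3112, 3355 and 1481 without it. The replicate numbers showed no pairing, with correlations of same-numbered libraries from −0.028 to 0.0098. The difference for SPRED1 crossed the fold limit in 6 alternatives (−1.001 to −1.074), and that for DUSP1 without TC71 vehicle replicate 3 (−1.04). For DUSP5 under vehicle the difference between the lines passed in 4 alternatives (0.28 to 0.38). The cause of these shifts was not tested. Low counts limit DUSP4 in TC71, DUSP10, SPRY1 and SPRY4 in EW8.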
